A study of Rattus norvegicus with 42 samples.

Results

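The genes described here encode the alpha, beta and gamma subunits of heterotrimeric G proteins and the regulators of G protein signalling (RGS). They were taken by symbol, from the probe sets that the platform annotation gives a single gene symbol. That symbol had to be one of Gnb1 to Gnb5, or to begin with Gng or Rgs and a number, or with Gna and a member number or letter. The gamma subunit genes Gngt1 and Gngt2 did not match and are counted with the partner genes below. The rule gave 71 of the 31042 probe sets tested and 46 of 14217 named genes. These were 14 alpha, 5 beta, 9 gamma and 18 RGS genes, the last with Rgs7bp, a binding protein of RGS proteins, among them. A pair of probe sets that the annotation assigns to both Gnai1 and Gnai3 (2 in all) was left out, so Gnai3 was not analysed here. Expression was measured on Affymetrix rat arrays in brain, lung and liver of 1 untreated animal, with an age of 9 to 12 weeks in the labels, and in 11 mixtures of their labelled cRNA. Total RNA was taken with Trizol and cleaned on RNeasy columns. Neither strain nor sex is stated in the labels. Each of the 14 groups had 3 arrays, which are technical replicates, so p-values refer to the spread of repeated arrays and leave out any difference from animal to animal. Values are RMA levels on the log2 scale, and tests compare the same probe set between groups. Where a gene has several probe sets, its main one is that with the highest mean over the 42 arrays.

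G protein coupled receptors at the cell surface load the alpha subunit with GTP, after which it parts from the beta-gamma dimer and both act on effectors. Alpha subunits of the s class raise cyclic AMP and those of the i class lower it, those of the q class turn on phospholipase C beta, and those of the Gna12 class turn on RhoGEFs. RGS proteins speed GTP hydrolysis by the alpha subunit and so end the signal. In brain these proteins set the timing of the slow responses to transmitters such as dopamine, acetylcholine and glutamate.

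The tissues carried their own markers: 6 of 6 neuron genes were enriched in brain, 4 of 4 alveolar epithelial genes in lung and 5 of 5 hepatocyte genes in liver, where enriched means called higher than in each other tissue, by 2-fold or more. Lung also held heart muscle transcripts (4 of 5 measured genes enriched there) and white blood cell transcripts (5 of 5). Brain held albumin mRNA (Alb 12.21 in brain, 5.07 in lung and 14.31 in liver). Array medians ranged from 5.48 to 5.83, and the median SD between the arrays of a tissue was 0.09 in brain, 0.09 in lung and 0.12 in liver. The bacterial dap controls had tissue means of 2.43 to 3.09, and folds against levels near 3 or 4 are approximate for that reason. Of the 71 probe sets, 9 stayed below the median of all values (5.73) in each tissue mean (12.7%, against 36.9% of all probe sets), and 3 genes did so by their main probe set, Gna15, Gnat1 and Gnat2. The number of arrays limits the precision of every value.

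G protein subunit and RGS genes were enriched mostly in brain or lung and seldom in liver. Of the 46 genes, 15 were enriched in brain (32.6%, against 11.7% of all genes), 9 in lung (19.6%, against 11.5%), 1 in liver (2.17%, against 9.61%) and 21 in none. By probe set the counts were 24 of 71 in brain (11.5% of all probe sets), 15 in lung (8.95%) and 1 in liver (7.28%). For brain against liver, 22 genes were higher in brain (20% of all genes) and 4 lower (19.3%), by limma at a Benjamini-Hochberg adjusted p under 0.05 and at least 2-fold. Brain against lung gave 17 genes higher in brain (15.5% of all genes) and 13 lower (20.8%). By probe set, 33 were higher (18.9% of all) and 5 lower (14.6%) in brain than in liver, and 27 higher (15% of all) and 21 lower (15.9%) in brain than in lung. Lung against liver gave 21 genes higher in lung (20.6%) and 2 lower (13.8%). For lung against liver the split by probe set was 31 higher (17.2% of all) and 2 lower (10.8%), and it moved to 26 and 6 after the arrays were centred on their medians and to 34 and 7 after each array's 5th percentile was subtracted. The median of all probe sets moved too, from -0.12 as deposited to -0.37 after the centring and 0 after the subtraction. The median difference over the 46 genes was 0.96 (log2) for brain minus liver, 0.35 for brain minus lung and 0.82 for lung minus liver, where the medians over all genes were -0.19, -0.09 and -0.03. In tissue RNA, fewer cells of a type and less RNA per cell cannot be told apart.

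**Figure D1:**
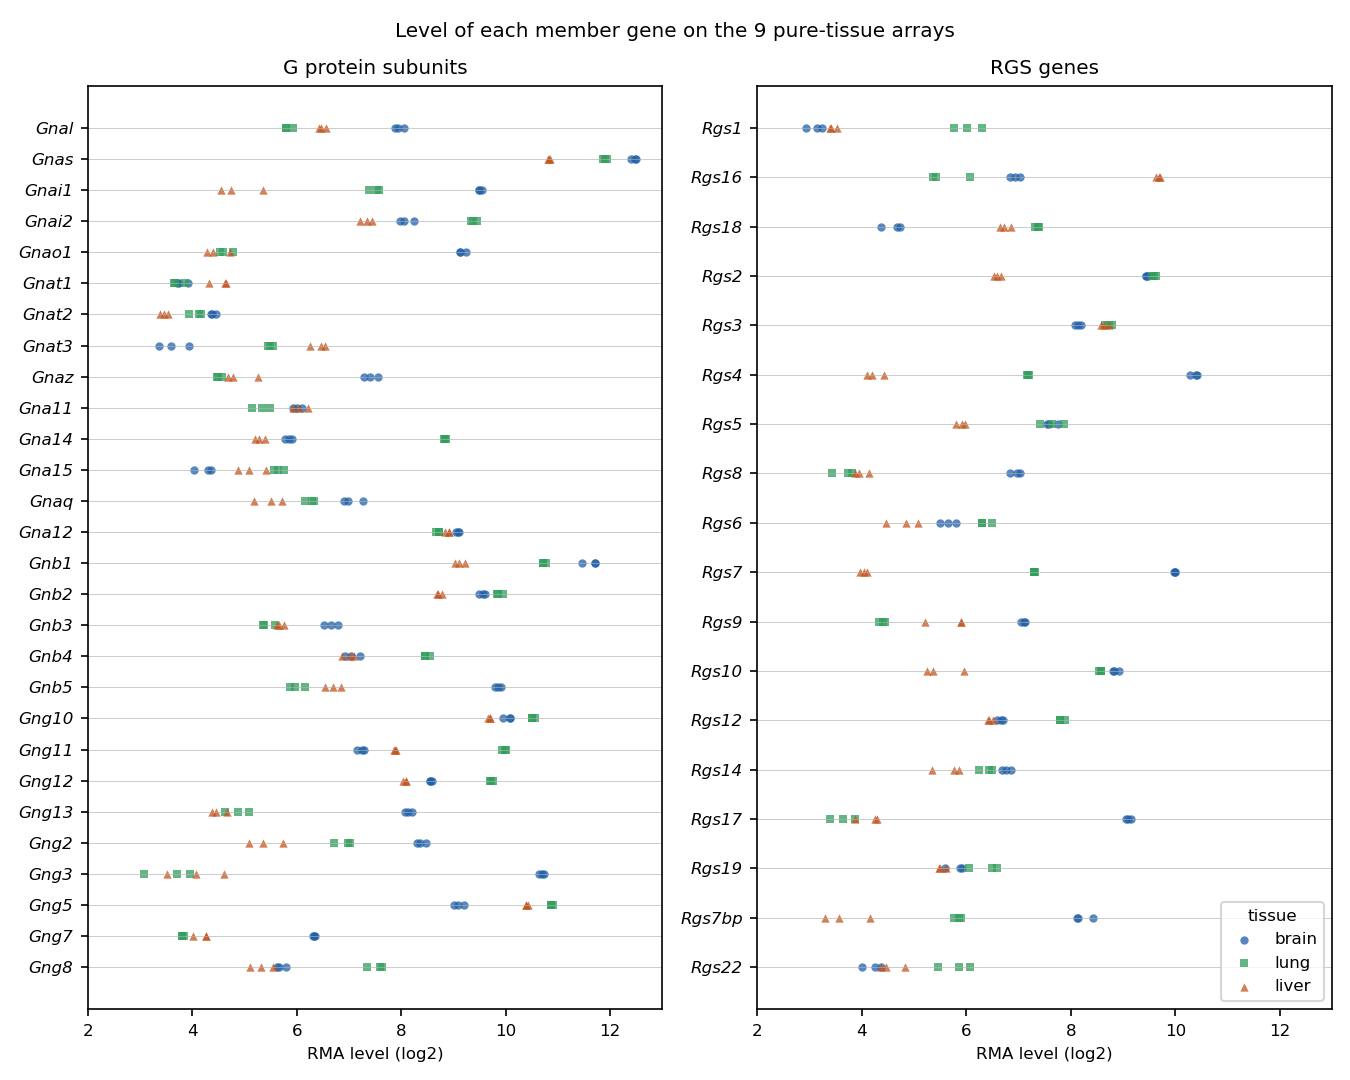
RMA level (log2, horizontal axis) of each of the 46 genes on the 3 brain, 3 lung and 3 liver arrays, with 1 point an array, subunits on the left and RGS genes on the right. Gng3, Rgs17 and Gnao1 stand apart in brain, Gna14 and Gng11 in lung and Rgs16 in liver.

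Among the 14 alpha subunit genes, 4 were enriched in brain, 2 in lung and none in liver, and 8 in no tissue. Gnao1, which encodes the Go alpha subunit that is abundant in neurons, read 9.13, 9.25 and 9.13 on the brain arrays, 4.78, 4.59 and 4.52 on the lung arrays and 4.40, 4.71 and 4.28 on the liver arrays. All brain arrays lay above all others, and those of lung and liver overlapped. The difference was 4.70 ± 0.10 (log2, SE, n = 3) from liver, or 26.1-fold, and 4.54 from lung, or 23.2-fold (limma adjusted p = 8.63e-31 and 4.04e-30). Gnaz, an i class subunit with slow GTP hydrolysis, read 7.56, 7.29 and 7.39 in brain, 4.48, 4.47 and 4.57 in lung, and 4.78, 5.26 and 4.69 in liver. Its brain arrays again stood clear, by 2.91 over lung and 2.51 over liver.

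Gnai1, an i class subunit that inhibits adenylyl cyclase, was graded over the tissues at 9.51 ± 0.04 in brain, 7.50 ± 0.10 in lung and 4.88 ± 0.42 in liver (log2, SD, n = 3). Brain was 4.04-fold above lung, and lung in turn 6.14-fold above liver (limma adjusted p = 3.66e-19 and 2.03e-22). Gnal, which encodes the Golf alpha subunit of olfactory and striatal neurons, averaged 7.96 ± 0.09 in brain, 5.83 ± 0.08 in lung and 6.48 ± 0.07 in liver. Its smaller difference was 1.48, or 2.79-fold, beside striatal neuron markers of which 6 of 7 were enriched in brain. Other brain lists were enriched there too, with 6 of 6 neuron and 4 of 4 astrocyte genes. Which brain cells held Gnal was not tested. Gnai2, the i class subunit found in most cells and abundant in white blood cells, ran the other way. It read 8.05, 8.25 and 7.98 in brain, 9.46, 9.37 and 9.34 in lung, and 7.43, 7.34 and 7.22 in liver. No tissue's arrays overlapped another's, and lung was 2.46-fold above brain and 4.17-fold above liver (limma adjusted p = 1.04e-15 and 2.15e-21).

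The q class split over the tissues. Gna14 read 5.77, 5.85 and 5.91 in brain, 8.81, 8.83 and 8.86 in lung, and 5.38, 5.28 and 5.19 in liver. Lung stood 7.96-fold above brain and 11.7-fold above liver, the largest smaller difference of any member enriched in lung (limma adjusted p = 6.78e-28 and 4.73e-30). Gnaq, the widely expressed q class subunit, read 6.97, 7.28 and 6.91 in brain, 6.28, 6.15 and 6.34 in lung, and 5.17, 5.50 and 5.71 in liver. Brain exceeded liver by 1.59 (3.01-fold), while the differences of 0.80 between brain and lung and 0.79 between lung and liver were under 2-fold. Gna11, its close relative, averaged 6.01 ± 0.09 in brain, 5.32 ± 0.18 in lung and 6.06 ± 0.14 in liver and was called in no comparison. Gna15, known from blood cells, was dim at 4.23 in brain, 5.65 in lung and 5.12 in liver, and lower in brain than in lung by 1.42. Gna12, the measured subunit of its class, differed by no more than 0.38 between tissues by its main probe set and by up to 0.90 by the other one, with no call by either.

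Of the subunits of sensory cells, Gnat1 and Gnat2, the transducins of rods and cones, were dim, with tissue means of 3.45 to 4.53. The photoreceptor genes Sag and Pde6b lay between 3.35 and 4.37. Gnat3, which encodes gustducin of taste and tuft cells, was least in brain. It read 3.59, 3.93 and 3.36 in brain, 5.44, 5.48 and 5.54 in lung, and 6.53, 6.47 and 6.26 in liver. Brain was lower than lung by 1.86 and lower than liver by 2.79 (limma adjusted p = 2.15e-15 and 1.76e-20). Lung was below liver by 0.93, under the 2-fold limit as deposited but past it at 1.19 lower after arrays were centred on their medians. Of other genes known from tuft and taste cells, Dclk1 was enriched in brain, Plcb2 lay at 4.91 in brain, 5.70 in lung and 5.42 in liver, and Pou2f3 at 3.64, 4.14 and 4.34 in the same order.

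Gnas, which encodes the Gs alpha subunit that raises cyclic AMP, gave a different picture with each of its 3 probe sets. The main one, 1369897_s_at, read 12.47, 12.49 and 12.40 in brain, 11.90, 11.86 and 11.93 in lung, and 10.85, 10.81 and 10.82 in liver. That order was free of overlap but shallow, at 1.47-fold for brain over lung and 2.10-fold for lung over liver, the second at 0.82 (log2), under the limit, after median centring. A second, 1387906_a_at, read 9.93, 9.97 and 9.91 in brain, 5.78, 5.82 and 5.71 in lung, and 5.66, 5.46 and 5.51 in liver. It was 18-fold higher in brain than in lung and 21.0-fold higher than in liver. The third, 1390263_at, was dim and highest in lung, at 3.95 ± 0.09 in brain, 5.01 ± 0.06 in lung and 3.78 ± 0.19 in liver. The Gnas locus is known to give several transcripts from separate promoters, and which of them each probe set reads was not tested.

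Among the 5 beta subunit genes, Gnb5 was enriched in brain and Gnb4 in lung. Gnb5 encodes the outlying beta subunit that pairs with RGS proteins of the R7 family in place of a gamma subunit. It read 9.80, 9.90 and 9.86 in brain, 6.16, 5.86 and 5.97 in lung, and 6.54, 6.85 and 6.69 in liver. Brain was 14.5-fold above lung and 8.95-fold above liver, with no overlap (limma adjusted p = 1.32e-32 and 3.09e-30), and lung was the lowest tissue. Gnb4 read 6.93, 7.21 and 7.03 in brain, 8.45, 8.46 and 8.55 in lung, and 7.10, 6.87 and 7.02 in liver. Its brain and liver arrays overlapped, and lung stood 2.69-fold above brain and 2.81-fold above liver.

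The other beta genes were enriched nowhere by their main probe sets. Gnb1, the common partner of many alpha subunits, read 11.70, 11.47 and 11.71 in brain, 10.71, 10.76 and 10.71 in lung, and 9.10, 9.02 and 9.22 in liver. Liver was thus lowest, by 3.06-fold against lung and 5.71-fold against brain, and brain led lung by 0.90, just under 2-fold. Gnb2, a second widely used partner, averaged 9.55 ± 0.06 in brain, 9.88 ± 0.06 in lung and 8.72 ± 0.05 in liver. Only its lung over liver difference of 1.16 passed, and it fell to 0.90 after median centring. Its other probe set, 1370867_at, averaged 8.63 ± 0.06 in brain, 8.84 ± 0.08 in lung and 8.03 ± 0.08 in liver, and its lung over liver difference of 0.81 was under 2-fold. Gnb3, known from cone photoreceptors, averaged 6.65 ± 0.13 in brain, 5.44 ± 0.13 in lung and 5.68 ± 0.07 in liver, and brain was called higher than lung by 1.21.

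The 9 gamma subunit genes held both extremes, with 4 enriched in brain, 3 in lung and 2 in no tissue. Gng3, a gamma subunit of neurons, read 10.73, 10.64 and 10.69 in brain, 3.95, 3.70 and 3.07 in lung, and 4.60, 3.51 and 4.06 in liver. Its brain level exceeded liver by 6.63 ± 0.15 (log2, SE, n = 3), or 98.9-fold, and lung by 7.11, the widest differences of all 71 probe sets (limma adjusted p = 1.94e-29 and 3.54e-30). Lung and liver overlapped near the dimmest values, so both folds are approximate. Gng13, known as the partner of gustducin in taste cells and present in cerebellum, read 8.07, 8.21 and 8.13 in brain, 5.09, 4.88 and 4.63 in lung, and 4.66, 4.37 and 4.46 in liver. Brain was 9.69-fold above lung and 12.5-fold above liver. Gng7, which pairs with Golf in the striatum, averaged 6.33 ± 0.02 in brain, 3.82 ± 0.03 in lung and 4.18 ± 0.14 in liver. Gng2, widely used in brain, averaged 8.38 ± 0.09 in brain, 6.90 ± 0.17 in lung and 5.39 ± 0.33 in liver, so lung again lay between.

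The gamma genes enriched in lung were Gng11, Gng8 and Gng12. Gng11, a farnesylated gamma subunit found outside the nervous system, read 7.25, 7.16 and 7.28 in brain, 9.93, 9.99 and 10.00 in lung, and 7.90, 7.86 and 7.89 in liver. Lung was 6.69-fold above brain and 4.27-fold above liver, and no arrays of different tissues overlapped (limma adjusted p = 2.52e-30 and 9e-27). Gng8, first known from olfactory neurons, read 5.65, 5.79 and 5.63 in brain, 7.62, 7.35 and 7.59 in lung, and 5.32, 5.09 and 5.54 in liver, 3.55-fold and 4.60-fold below lung. Gng12 averaged 8.56 ± 0.02 in brain, 9.72 ± 0.03 in lung and 8.07 ± 0.03 in liver. Gng5 and Gng10, both widely expressed, were enriched nowhere. Gng5 read 9.01, 9.20 and 9.08 in brain, 10.90, 10.88 and 10.86 in lung, and 10.42, 10.39 and 10.39 in liver. It was the gamma gene called lower in brain than in both other tissues, by 3.44-fold against lung and 2.46-fold against liver, the second at 0.99 (log2) lower, just short of the limit, when the arrays were rescaled by a curve through their spiked hybridisation controls.

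Beside these lung genes, the lists for blood vessels, white blood cells and alveolar epithelium had their highest summed levels in lung. All 4 measured endothelial genes were enriched in lung, and their summed level (log2 of the sum) was 8.72 to 8.78 on brain arrays, 12.89 to 12.94 on lung arrays and 10.41 to 10.54 on liver arrays. The white blood cell genes summed to 8.98 to 9.21 in brain, 14.01 to 14.14 in lung and 9.80 to 9.86 in liver. Lyz2 made up most of that sum, at 8.93 in brain, 13.87 in lung and 9.34 in liver by itself. The median level of the list was 4.08 in brain, 9.88 in lung and 5.96 in liver. Of the pericyte and smooth muscle list, 5 of 7 genes were enriched in lung and 1, Kcnj8, in liver, and their summed level was 8.35 to 8.45 in brain, 10.97 to 11.04 in lung and 8.65 to 8.68 in liver. The alveolar epithelial genes summed to 6.18 to 6.37 in brain, 14.64 to 14.69 in lung and 6.81 to 7.18 in liver. The part of all these cell types in the levels of Gng11, Gna14, Gnai2 and the RGS genes of lung was not tested.

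Of 18 genes with an Rgs symbol, 6 were enriched in brain, 3 in lung, 1 in liver and 8 in no tissue. The 6 include Rgs7bp, which encodes a binding protein of the R7 family and not an RGS protein. Within the R4 family, small RGS proteins that act mainly on the i and q classes, the 8 measured genes had members enriched in each of the 3 tissues. Rgs4, the abundant R4 protein of cortex and striatum, read 10.42, 10.28 and 10.40 in brain, 7.15, 7.18 and 7.19 in lung, and 4.41, 4.09 and 4.19 in liver. Brain exceeded liver by 6.13 ± 0.06 (log2, SE, n = 3), or 70.2-fold, and lung by 3.19, or 9.12-fold, and lung was 7.70-fold above liver (limma adjusted p = 1.2e-40, 3.98e-32 and 4.58e-31). Rgs8, known from Purkinje cells of the cerebellum, read 7.02, 6.84 and 6.97 in brain, 3.80, 3.73 and 3.42 in lung, and 4.14, 3.87 and 3.95 in liver. Its brain level was 9.80-fold above lung and 7.79-fold above liver, beside Purkinje cell markers of which 3 of 4 were enriched in brain. Lists of other brain cells were enriched there too, and which brain cells held Rgs8 was not tested.

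Rgs16, which acts on the i and q classes, was the member enriched in liver. It read 7.02, 6.94 and 6.83 in brain, 6.07, 5.41 and 5.35 in lung, and 9.69, 9.71 and 9.62 in liver. Brain was 6.70-fold below liver and lung 16.7-fold below liver (limma adjusted p = 9.17e-23 and 1.08e-27). Brain was also 2.50-fold above lung. Beside that difference, 3 of the 5 hepatocyte genes were called higher in brain than in lung, Alb at 12.21 in brain and 5.07 in lung Tdo2 at 4.85 in brain and 3.47 in lung and F2 at 4.54 in brain and 3.46 in lung. Cyp1a2, at 4.67 in brain and 3.86 in lung, and Slco1b2, at 3.38 in brain and 3.28 in lung, were not called. Their part in the brain level of Rgs16 was not tested.

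Rgs1, the RGS protein of activated B cells, read 3.23, 2.92 and 3.15 in brain, 6.30, 5.76 and 6.02 in lung, and 3.40, 3.52 and 3.39 in liver. It was 7.58-fold higher in lung than in brain and 6.01-fold higher than in liver. Rgs18, known from platelets and their precursors, averaged 4.59 ± 0.20 in brain, 7.36 ± 0.05 in lung and 6.74 ± 0.11 in liver, lower in brain than in lung by 2.77 and than in liver by 2.16. Of 4 measured platelet genes, Pf4 was enriched in lung, at 4.87 in brain, 8.91 in lung and 6.14 in liver. The other 3 had their highest mean in liver, with Itga2b at 4.82 in brain, 5.81 in lung and 7.07 in liver, Gp9 at 4.32, 4.95 and 5.16 and Ppbp at 3.00, 3.28 and 3.92 in the same order. Their part in the levels of Rgs18 was not tested. Rgs2, which prefers the q class, read 9.48, 9.44 and 9.44 in brain, 9.64, 9.56 and 9.58 in lung, and 6.59, 6.67 and 6.52 in liver. Brain and lung were 7.27-fold and 8-fold above liver and 0.14 (log2) apart. Rgs5, a gene of pericytes, had overlapping brain and lung arrays, at 7.63 ± 0.12 in brain and 7.64 ± 0.22 in lung, against 5.90 ± 0.09 in liver. Rgs3 averaged 8.14 ± 0.06 in brain, 8.73 ± 0.07 in lung and 8.65 ± 0.07 in liver by its main probe set and was called in no comparison.

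**Figure D2:**
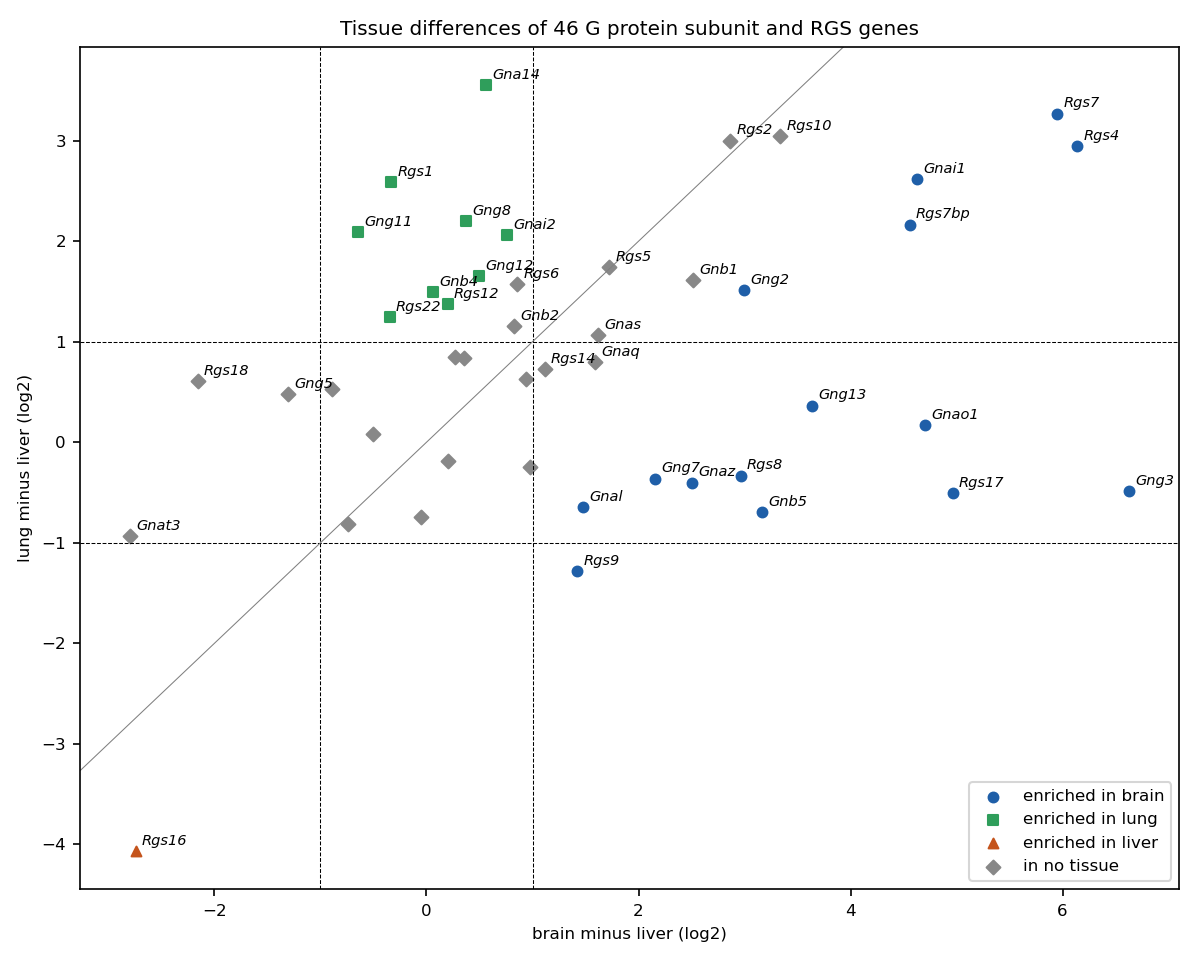
Difference of each of the 46 genes between brain and liver (horizontal) and between lung and liver (vertical), both log2, with dashed lines at 2-fold and a diagonal where brain and lung are equal. On the pure arrays, genes of the upper right, such as Rgs7, Rgs4 and Gnai1, were above liver in both other tissues. For Rgs7, Rgs4 and Gnai1 the lung over liver call was not repeated from the mixtures alone. Gng3 and Rgs17 were above liver in brain alone, and Rgs16 lies at the lower left (-2.74 and -4.06).

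Several R4 genes are neighbours on rat chromosome 13. In the GRCr8 gene order of RefSeq no protein-coding gene lies between Rgs8 and Rgs16 or between Rgs5 and Rgs4, and these neighbours differed in highest tissue. Rgs8 was enriched in brain and Rgs16 in liver, and Rgs4 was enriched in brain while Rgs5 overlapped between brain and lung. Over the 46 genes 8 pairs had at most 1 protein-coding gene between them, and 2 of the pairs had the same highest tissue (25%, against 37.2% of 12498 such pairs over all placed genes). Both of those, Rgs2 with Rgs1 and Rgs1 with Rgs18, were highest in lung. Gnai1 and Gnat3 are also adjacent, on chromosome 4, and were highest in brain and in liver.

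The promoters of these neighbours, and that of Gnao1, are shown so that the differing genes can be read side by side. They are RefSeq sequences of GRCr8, from 250 bases before to 50 after the annotated start, 5′ to 3′ on the gene's strand, and 39 of the 46 genes had an entry. Rgs8 lies at chr13:68366648-68366947 (plus strand), Rgs16 at chr13:68437870-68438169 (plus), Rgs5 at chr13:84380827-84381126 (plus), Rgs4 at chr13:84475835-84476134 (minus) and Gnao1 at chr19:11198388-11198687 (minus). Capitals mark matches on either strand. The motifs were the CCAAT box with the letters CCAAT, the GC box with GGGCGG, the TATA box with TATAAA and the E-box with CACGTG. The last was the cyclic AMP response element with TGACGTCA. None of these 5 motifs contains another.
Rgs8: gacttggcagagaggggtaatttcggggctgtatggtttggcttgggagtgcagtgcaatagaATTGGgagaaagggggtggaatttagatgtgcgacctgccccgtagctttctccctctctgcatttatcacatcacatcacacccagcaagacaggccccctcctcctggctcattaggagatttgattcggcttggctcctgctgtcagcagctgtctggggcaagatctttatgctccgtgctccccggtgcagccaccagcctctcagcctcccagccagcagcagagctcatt
Rgs16: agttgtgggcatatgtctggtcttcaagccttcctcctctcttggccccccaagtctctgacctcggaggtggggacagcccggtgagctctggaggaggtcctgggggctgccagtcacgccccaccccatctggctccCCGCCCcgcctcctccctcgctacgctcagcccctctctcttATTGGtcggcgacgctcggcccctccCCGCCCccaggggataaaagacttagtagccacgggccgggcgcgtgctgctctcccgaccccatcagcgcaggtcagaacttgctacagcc
Rgs5: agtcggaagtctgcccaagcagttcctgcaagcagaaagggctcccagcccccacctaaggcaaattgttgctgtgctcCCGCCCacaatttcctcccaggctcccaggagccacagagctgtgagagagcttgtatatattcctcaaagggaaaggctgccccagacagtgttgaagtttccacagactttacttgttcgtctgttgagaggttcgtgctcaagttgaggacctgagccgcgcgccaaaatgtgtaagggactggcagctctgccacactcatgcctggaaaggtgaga
Rgs4: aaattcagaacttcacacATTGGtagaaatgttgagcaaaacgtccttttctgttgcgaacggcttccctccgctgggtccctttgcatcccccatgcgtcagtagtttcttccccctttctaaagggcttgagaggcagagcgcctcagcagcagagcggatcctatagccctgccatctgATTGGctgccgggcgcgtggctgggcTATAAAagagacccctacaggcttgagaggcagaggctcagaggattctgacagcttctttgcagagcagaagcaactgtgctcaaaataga
Gnao1: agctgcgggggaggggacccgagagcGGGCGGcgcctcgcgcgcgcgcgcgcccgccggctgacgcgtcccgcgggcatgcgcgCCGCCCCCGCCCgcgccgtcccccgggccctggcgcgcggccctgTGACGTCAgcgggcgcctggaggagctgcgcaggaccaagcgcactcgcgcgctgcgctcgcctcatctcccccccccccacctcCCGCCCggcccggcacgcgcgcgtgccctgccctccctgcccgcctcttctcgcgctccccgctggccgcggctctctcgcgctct
Rgs4 held a TATA box and 2 CCAAT boxes, Rgs16 2 GC boxes and 1 CCAAT box, Rgs8 1 CCAAT box and Rgs5 1 GC box. Gnao1 held the single cyclic AMP response element found among the 39 promoters, a motif present in 1.91% of all 27457 rat promoters of this length. The GC box was in 22 of 39 (56.4%, against 34.9% of all promoters), the CCAAT box in 11 (28.2%, against 37.7%), the TATA box in 5 (12.8%, against 14.3%) and the E-box in 3 (7.69%, against 6.65%). The median GC content was 64.3% over 14 promoters of genes enriched in brain, 46.8% over 6 of genes enriched in lung and 62.0% over 18 of genes enriched in no tissue, and 52.3% over all promoters. These letters are a description of the window and say nothing of binding.

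The R7 family, whose proteins need Gnb5 to be stable, comprised Rgs6, Rgs7 and Rgs9 here. Rgs7 read 9.99, 9.99 and 9.97 in brain, 7.32, 7.29 and 7.30 in lung, and 4.09, 3.96 and 4.05 in liver. Brain was 6.41-fold above lung and 61.9-fold above liver, and lung 9.64-fold above liver (limma adjusted p = 2.81e-30, 1.2e-40 and 8.09e-33). Rgs7bp, which anchors R7 proteins at the membrane, read 8.15, 8.42 and 8.13 in brain, 5.77, 5.85 and 5.89 in lung, and 3.57, 4.15 and 3.30 in liver. It repeated the order of Rgs7, with lung 4.49-fold above liver and brain 5.25-fold above lung. Gnb5 did not share that order, since its lung level of 5.99 was below its liver level of 6.69. The 6 neuron markers lay at 3.07 to 4.67 in lung and at 3.33 to 5.14 in liver.

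Rgs9, known from striatum and photoreceptors, averaged 7.09 ± 0.04 in brain, 4.39 ± 0.06 in lung and 5.67 ± 0.40 in liver. Brain was 6.51-fold above lung and 2.68-fold above liver, and lung was below liver by 1.28 as deposited and by 0.35, under the limit, with the hybridisation control curve. Rgs6, known from heart and brain, read 5.65, 5.79 and 5.50 in brain, 6.29, 6.30 and 6.50 in lung, and 5.07, 4.46 and 4.84 in liver. Lung was 2.97-fold above liver, and its lead of 0.71 over brain was under 2-fold. The heart muscle genes summed to 7.19 to 7.34 in brain, 10.56 to 10.59 in lung and 6.91 to 7.25 in liver, and their part in the lung level of Rgs6 was not tested.

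In the remaining families, Rgs17 was the RGS gene with the largest smaller difference in brain. This RZ family protein, which acts on Gz and other i class subunits, read 9.10, 9.15 and 9.05 in brain, 3.39, 3.86 and 3.64 in lung, and 4.24, 4.29 and 3.87 in liver. Brain was 44.3-fold above lung and 31.2-fold above liver (limma adjusted p = 3.89e-33 and 4.02e-32). Rgs19, of the same family, read 5.89, 5.92 and 5.59 in brain, 6.06, 6.50 and 6.58 in lung, and 5.48, 5.61 and 5.50 in liver and was called in no comparison. In the R12 family, Rgs10, known from microglia and from white blood cells, read 8.83, 8.93 and 8.81 in brain, 8.54, 8.58 and 8.58 in lung, and 5.25, 5.95 and 5.37 in liver. Brain and lung were 10.1-fold and 8.27-fold above liver and 0.29 (log2) apart. Rgs12, a scaffold that also binds Ras proteins, averaged 6.65 ± 0.06 in brain, 7.83 ± 0.05 in lung and 6.45 ± 0.06 in liver and was enriched in lung. Rgs14, its relative, averaged 6.77 ± 0.09 in brain, 6.39 ± 0.14 in lung and 5.66 ± 0.28 in liver. Its brain over liver difference of 1.12 fell to 0.87, under the limit, after median centring, to 0.82 after repeated quantile normalization and to 0.96 without liver replicate 3. Rgs22, known mainly from testis, was enriched in lung at 4.20 ± 0.19 in brain, 5.80 ± 0.31 in lung and 4.55 ± 0.25 in liver, and its lung over liver difference of 1.24 fell to 0.99 after median centring.

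Where a gene had several probe sets, they did not always place it alike. Of 18 such genes, 12 had the same highest tissue by all their probe sets, and 12 the same enrichment. All 5 probe sets of Rgs17 were enriched in brain, with smaller differences from 2.51 to 5.24. Gnb1 was highest in brain by 2 probe sets but enriched in lung by 1367732_at, at 8.26 ± 0.11 in brain, 9.51 ± 0.01 in lung and 7.83 ± 0.02 in liver. Of those 2, 1367731_at had overlapping brain and lung arrays, with means of 9.98 and 9.88. Gng12 was highest in liver by 1377739_at, at 6.91 ± 0.04 in brain, 7.63 ± 0.08 in lung and 7.86 ± 0.08 in liver. Gna12 was highest in liver by its other probe set (5.98 ± 0.07 in brain, 5.67 ± 0.05 in lung and 6.57 ± 0.05 in liver). Rgs3 was enriched in lung by its 2 other probe sets, 3.66-fold and 2.67-fold above liver, and not by the main one. The second probe set of Rgs9 stayed between 3.26 and 3.91 in all tissue means, and that of Gng11 was highest in lung but only 1.55-fold above liver. Gnas is described above, and the remaining disagreement, that of Gng5, involved a probe set near the dap controls (2.87 in brain, 3.04 in lung and 3.16 in liver).

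**Figure D3:**
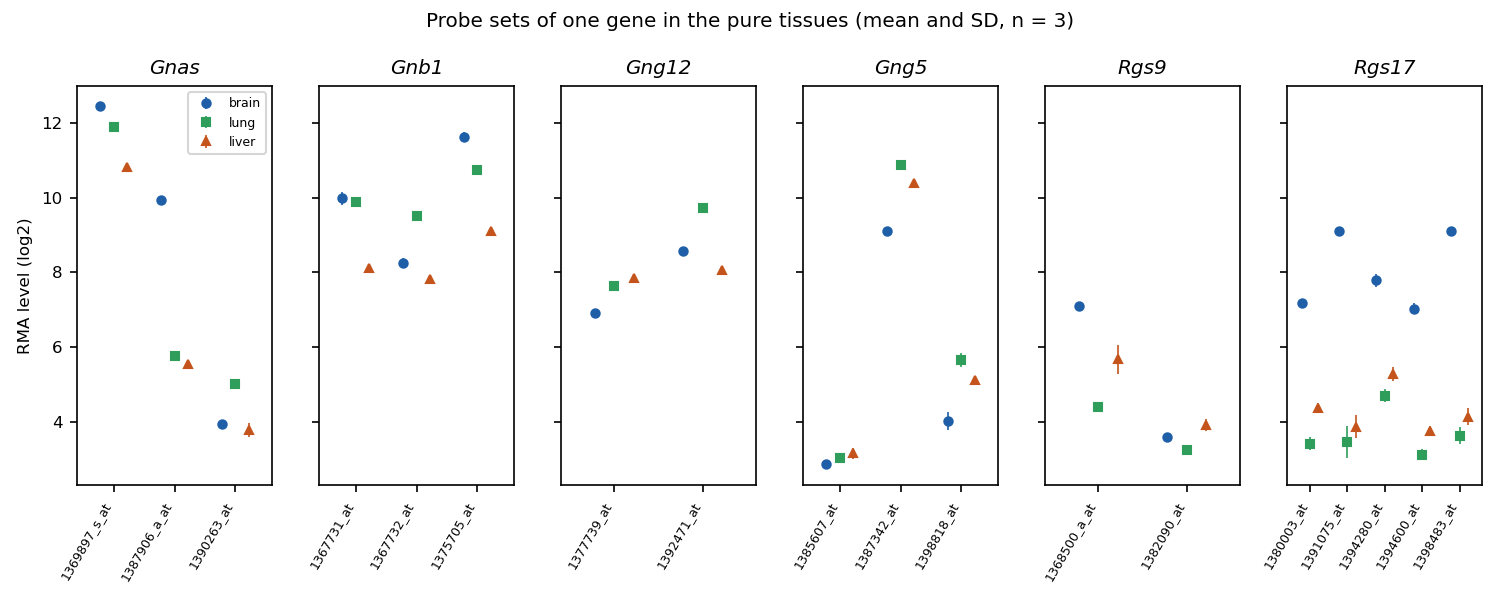
Mean RMA level (log2, vertical axis) with its SD over 3 arrays in brain, lung and liver for every probe set of Gnas, Gnb1, Gng12, Gng5, Rgs9 and Rgs17. The order of the tissues changes between probe sets of the first 5 genes and brain leads in all 5 probe sets of Rgs17, so a gene's tissue can rest on the probe set read.

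The partners of these proteins followed several orders, and their counts stand beside 20% of all genes higher and 19.3% lower in brain than in liver. Of 8 measured adenylyl cyclases, 5 were higher in brain than in liver and 1 lower, and Adcy8 was at 6.58 ± 0.11 in brain, 3.23 ± 0.25 in lung and 3.65 ± 0.45 in liver. Adcy4 was the one enriched in lung, at 4.63 ± 0.29 in brain, 7.07 ± 0.18 in lung and 6.06 ± 0.18 in liver. Of 4 phospholipase C beta genes, 2 were higher in brain than in liver and 1 lower, and Plcb4 had the pattern of Rgs2, at 9.24 ± 0.05 in brain, 9.26 ± 0.03 in lung and 5.19 ± 0.44 in liver. Among 4 potassium channel genes opened by beta-gamma dimers, 3 were enriched in brain (11.7% of all genes were), led by Kcnj6, 18.1-fold above lung and 16.5-fold above liver. Of 10 receptor kinases and arrestins, 2 were higher in brain than in liver, the same share as of all genes, and 5 higher in lung than in liver (20.6% of all genes). The kinase gene Grk5 was the one enriched in a tissue, at 4.45 ± 0.06 in brain, 7.77 ± 0.06 in lung and 4.71 ± 0.13 in liver.

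Of 13 chaperones and other regulators, 6 were enriched in brain and 2 in lung (11.7% and 11.5% of all genes). The list also held 2 gamma subunit genes. Gngt1, at 5.76 in brain, 3.26 in lung and 3.91 in liver, was 1 of the 6. Gngt2, at 5.72 in brain, 8.37 in lung and 7.26 in liver, was 1 of the 2. Gpr158, the orphan receptor that binds R7 proteins, lay at 9.08 ± 0.05 in brain, 4.86 ± 0.00 in lung and 4.06 ± 0.06 in liver. Gpsm3, a binding protein of i class subunits in white blood cells, lay at 4.31 ± 0.29 in brain, 7.89 ± 0.09 in lung and 5.20 ± 0.30 in liver. Of 6 RhoGEFs, 3 were higher in brain than in liver and 2 lower (20% and 19.3% of all genes). Arhgef1 was enriched in lung, at 6.42 ± 0.04 in brain, 8.84 ± 0.08 in lung and 7.45 ± 0.18 in liver, and Arhgef25 and Kalrn were enriched in brain. The median brain minus liver difference was 1.20 over the adenylyl cyclases, 0.64 over the phospholipases, 1.41 over the potassium channels, -0.01 over the kinases and arrestins, 0.11 over the chaperones and regulators and 0.60 over the RhoGEFs, where all genes had -0.19.

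The 11 mixtures were read as series over the labelled shares, here for 1 gene enriched in each tissue. Mixtures are named by their percentages of liver, brain and lung, as in 70/25/5. Gng3 had 4.06 ± 0.54 in pure liver and 3.57 ± 0.45 in pure lung, lay at 7.32 ± 0.06 (log2, SD, n = 3) at 5% brain, 8.87 ± 0.06 at 20%, 9.65 ± 0.02 at 40% and 10.27 ± 0.06 at 70%, and had 10.69 ± 0.04 in pure brain. Gna14 lay at 5.44 ± 0.13 with 1% lung, 6.76 ± 0.04 with 15%, 8.32 ± 0.03 with 70% and 8.83 ± 0.02 in pure lung. Rgs16 lay at 6.29 ± 0.07 with 5% liver, 7.74 ± 0.06 with 25%, 8.26 ± 0.15 with 45% and 9.67 ± 0.05 in pure liver. The 2 mixtures with 25% brain did not give Gng3 the same level: it was 8.95 ± 0.03 in 5/25/70 and 9.30 ± 0.01 in 70/25/5.

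**Figure D4:**
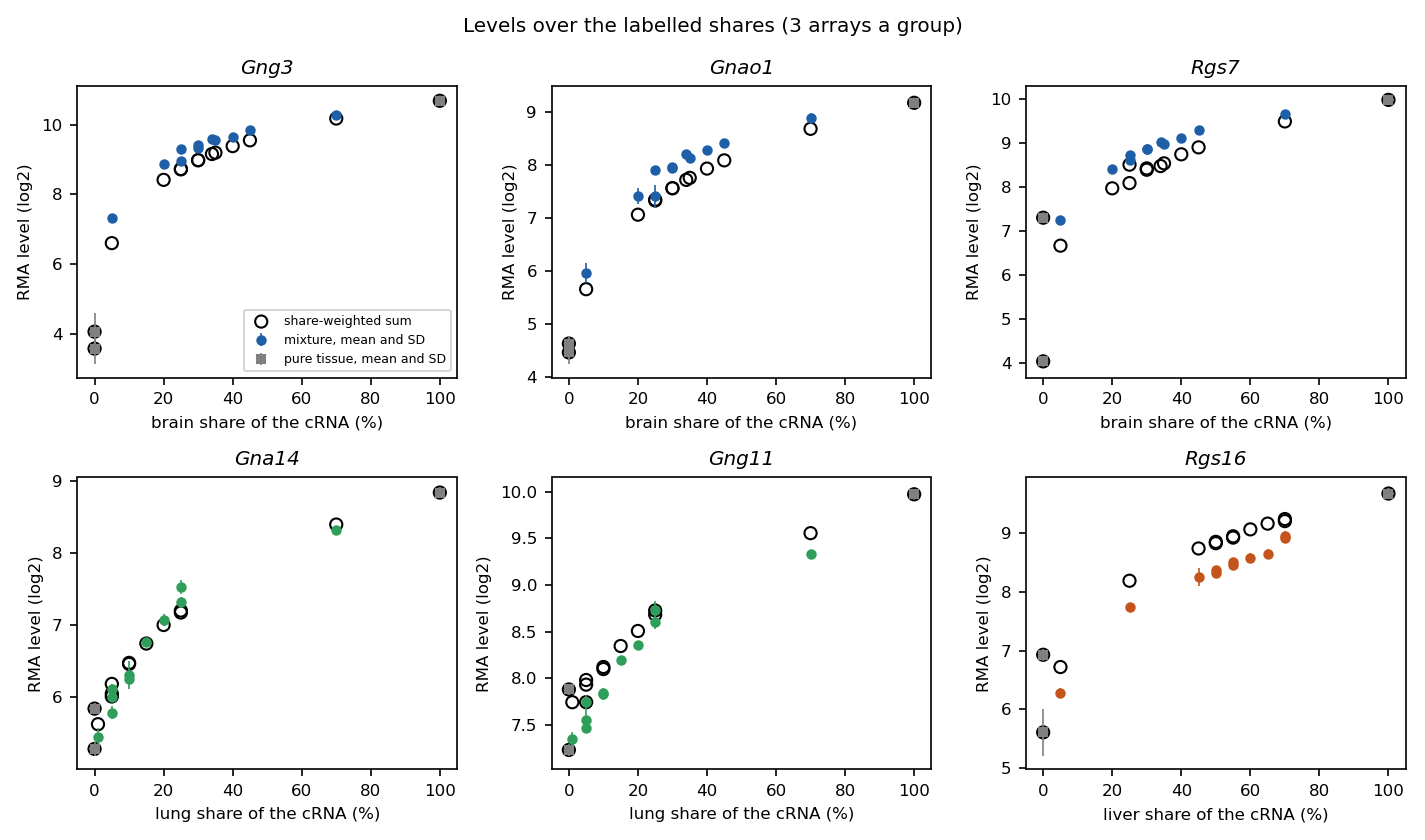
Mean RMA level (log2, vertical axis) with its SD over 3 arrays against the labelled share of brain (Gng3, Gnao1, Rgs7), lung (Gna14, Gng11) or liver (Rgs16), with the level calculated from the pure tissues and the shares as open circles. Filled points lie above the circles for the 3 brain genes and below them for Rgs16 in each mixture.

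A level was calculated for each mixture by weighting the linear levels of the pure tissues with their shares. Compared with it, 0 of the 71 probe sets lay 1.5-fold above it on average over the mixtures (0.325% of all did), with Rgs4 the highest at 0.50 ± 0.04, and 3 lay 1.5-fold below it (4.84% of all). These were Gnat3 at -0.89 ± 0.07 (log2, SE), Rgs1 at -0.65 ± 0.07 and Rgs18 at -0.64 ± 0.06, all below the calculated level in 11 of 11 mixtures (limma adjusted p = 2.7e-12, 6.08e-10 and 2.51e-11). A probe set of Gng5, 1398818_at, lay just inside the limit at -0.58 ± 0.07. The 24 probe sets enriched in brain had a median departure of 0.28, with 20 of 24 above 0, where all 3571 probe sets enriched in brain had a median of 0.13. Rgs4 lay above the calculated level in 11 of 11 mixtures. The 15 enriched in lung had a median of -0.17 (all probe sets enriched in lung -0.24) and Rgs16 lay at -0.44 (all enriched in liver -0.52). The median over all probe sets was -0.22.

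**Figure D5:**
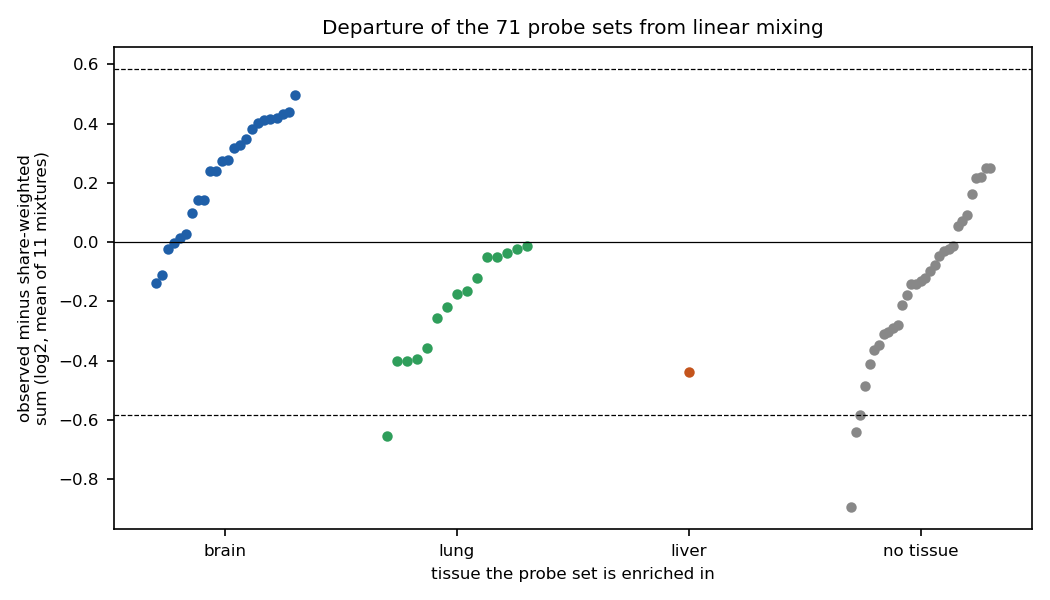
Departure from linear mixing (log2, vertical axis), which is the observed level less the one calculated from the shares, averaged over 11 mixtures, with 1 point for each of the 71 probe sets, ordered by value within the tissue of enrichment. Dashed lines mark 1.5-fold. Probe sets enriched in brain run from -0.14 to 0.50 and those enriched in lung from -0.65 to -0.01, and 3 points lie below the lower line.

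Pairs of mixtures that differ in 2 tissues at a constant share of the other gave calls at an adjusted p under 0.05 with no fold limit. With brain in place of liver at 5% lung (25/70/5 against 70/25/5), 41 of 71 probe sets were higher (30.9% of all) and 9 lower (22.1%), a split of 42 and 1 with the control curve. Of 38 members called between pure brain and pure liver, 37 were called in the same direction there. With brain in place of lung at 70% liver (70/25/5 against 70/5/25), 31 were higher (21.4% of all) and 25 lower (25.4%), and 45 of 48 pure calls were repeated. The control curve gave 24 higher and 10 lower. That curve also moved the median of all probe sets, for brain minus liver in the pure tissues from -0.18 to 0.66. Rgs16 was among the 3 not repeated, at 8.95 in 70/25/5 and 8.92 in 70/5/25, where the pure levels give a difference of 0.04. With lung in place of liver at 25% brain (5/25/70 against 70/25/5), 34 were higher (30.6% of all) and 23 lower (30.7%), and 26 of 33 pure calls were repeated (78.8%, against 92.3% of all probe sets called between lung and liver). The percentages of all probe sets that were repeated were 95.5% and 91.7% for the first and the second exchange.

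The exceptions in the exchange of lung for liver were the genes of brain that lung also held above liver. Rgs4 lay at 8.94 ± 0.03 in 5/25/70 and 9.16 ± 0.01 in 70/25/5, a difference of -0.22 ± 0.06 (SE, limma adjusted p = 0.00153), where the pure levels give 0.30. Rgs7 differed by -0.13 ± 0.06 (adjusted p = 0.0468), where they give 0.42. The other probe set of Rgs4, 1368506_at, was not called, at -0.18 (limma adjusted p = 0.0792) where the pure levels give 0.28. Gnai1, Rgs7bp and both probe sets of Gng2 were also not called, with Gnai1 at -0.08 where the pure levels give 0.55. At this constant 25% of brain, 18 of 24 probe sets enriched in brain were lower in 5/25/70, with a median difference of -0.41 where the pure levels give -0.02. The same held for 59.8% of all 3571 probe sets enriched in brain, whose median difference was -0.31. With the hybridisation control curve 0 of the 24 were called lower by limma (0 at an unadjusted p under 0.05) and the median difference was 0.04. Of all 3571 probe sets enriched in brain, 0.112% were lower under it, and their median difference was 0.14. Over all 71 probe sets the split of 34 higher and 23 lower moved to 34 and 1 under that curve. The median of all probe sets for lung minus liver in the pure tissues also moved under it, from -0.12 to 0.80.

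The mixtures alone, regressed on their labelled shares with no pure array in the fit, repeated the direction of most pure calls. For brain against liver 40 probe sets were higher (32.1% of all) and 12 lower (28.6%), or 53 and 4 with the control curve, and 38 of 38 pure calls were repeated. For brain against lung 34 were higher (28.9%) and 29 lower (31.7%), and 47 of 48 pure calls were repeated, all but Rgs16. For lung against liver 33 were higher (30.7%) and 20 lower (29.2%), or 43 and 1 with the control curve, whose shares of all probe sets are not given here. For lung against liver 26 of 33 pure calls were repeated (78.8%, against 92.5% of all probe sets). The 7 not repeated belonged to Gnai1, Gng2, Rgs4, Rgs7 and Rgs7bp, and none of them was called in the opposite direction. Most of their estimates of lung minus liver (linear scale) were nevertheless below 0, opposite in sign to the pure difference. They were -22.4 for Gnai1, -125.7 and -29.9 for Rgs4, -46.9 for Rgs7 and -36.9 for Rgs7bp. The main probe set of Gng2 gave 0.43 and its other one -10.35. The calls of these genes between lung and liver were thus made with the pure arrays and not from the mixtures alone, whereas Gna14 and Gng11 were called higher in lung in the mixtures alone (limma adjusted p = 3.68e-09 and 1.61e-09). Members under 2-fold between the pure tissues are outside these repeats. Of those, Gng13, the Gnas probe set 1387906_a_at and Gnao1 were 0.36, 0.22 and 0.17 higher in pure lung than in pure liver. For Gnao1 that pure difference had a limma adjusted p of 0.106. From the mixtures alone all of them were called lower in lung (limma adjusted p = 0.0205, 0.0162 and 0.0028). The main probe set of Gna12 was 0.18 lower in pure lung than in pure liver. From the mixtures alone it was called higher in lung (limma adjusted p = 0.0299).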

How the data were processed

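Labelled cRNA of brain, lung and liver and of 11 mixtures was hybridised to 3 Affymetrix arrays per group, 42 arrays in all. The authors deposited log2 RMA values per probe set, per the submitters' processing notes, of a version not given in the sources used here. It scales arrays to one another, so differences are relative to each array, and the deposited array medians still ranged from 5.48 to 5.83. No column of per-sample values was left unused, and no replicate pair held identical values.

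From these values 57 control probe sets were left out. The other 31042 were fitted with limma 3.58.1 (R 4.3.3) over 14 groups and p-values adjusted by Benjamini-Hochberg over all of them. Calls needed an adjusted p under 0.05 and 2-fold for pure tissues, 1.5-fold for the departure from linear mixing, and no fold for mixture pairs and for the mixtures alone (11 mixture means regressed on labelled shares on the linear scale, with a variance trend). A gene's probe set is the one with the highest mean over the 42 arrays. Symbols come from the platform annotation, and 46 of 46 matched RefSeq GRCr8, which gave gene order and promoters. The scripts were tested on simulated data, and Python 3.11.15 with matplotlib 3.10.9 drew the figures.

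The members and lists were chosen with earlier results of these data known, and the curve through the hybridisation controls was devised after the data were seen. Named with each array's value were up to 10 genes enriched in brain, 6 in lung and 6 in liver with the largest smaller difference, and the member of each subfamily that was enriched nowhere and differed most. Other probe sets were named where they changed the call or the highest tissue. The partner genes named were not always those that differed most. Adcy2, Gprasp2 and Kalrn, each highest in brain, had wider ranges (3.54, 4.67 and 2.56) than Adcy8, Gpsm3 and Arhgef1 of their lists (3.35, 3.59 and 2.42). Alternatives changed which arrays were fitted, the variance model, the scaling, the background, the filter on dim probe sets, the probe sets per gene, the scale of mixing and the replicates.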

Additional observations from a re-analysis of the deposited data

How the results depend on the processing

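Of the differences between pure tissues, which alone were followed gene by gene, no call changed direction under the alternatives run. Of these calls 24 of 26 for brain against liver, 30 of 30 for brain against lung and 19 of 23 for lung against liver held under all of them. The scalings moved the median of all probe sets: for brain minus liver, brain minus lung and lung minus liver it was -0.18, -0.03 and -0.12 (log2) as deposited, -0.42, -0.02 and -0.37 after median centring, and 0.66, -0.11 and 0.80 with the hybridisation control curve. Median centring left 6 probe sets lower in lung than in liver (2 as deposited), 2 enriched in liver (1 as deposited) and 7 below the level calculated from the shares (3 as deposited). Repeated quantile normalization gave 4 lower in lung than in liver and 2 enriched in liver. The control curve gave 3 lower in brain than in liver (5 as deposited), 1 lower in lung than in liver and 1 below the level calculated from the shares. Under that curve the pairs of mixtures had 1 lower with brain for liver (9 as deposited), 1 lower with lung for liver (23) and 10 lower with brain for lung (25), and the mixtures alone had 4 lower in brain than in liver (12) and 1 lower in lung than in liver (20). Subtracting the 5th percentile gave 8 lower in brain than in liver, 7 lower in lung than in liver, 3 enriched in liver and 7 below the level calculated from the shares. Mixing on the log2 scale instead put 21 above and 0 below the calculated level, and taking off the median departure of all probe sets put 8 above and 1 below. The shares of all probe sets under these settings are not given here, so the changed counts cannot be called particular to the members.

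With 1 probe set per gene, which tests fewer features, 17 were higher and 13 lower in brain than in lung (27 and 21 over all probe sets), 15 were enriched in brain and 9 in lung, and 20 were higher with brain for lung (31). Leaving out 1 array at a time gave 1 to 2 probe sets enriched in liver, with 2 without liver replicate 3. Leaving out 1 mixture at a time gave 7 to 15 lower in brain than in liver from the mixtures alone, with 7 without 70/5/25. It also gave 24 to 35 higher (33 with all mixtures) and 15 to 24 lower (20) in lung than in liver, and 23 to 29 lower in brain than in lung (29). The causes of the other changes were not tested. No paired analysis was possible because the labels number no replicates. Probe sets near the background controls carry compressed differences, and 1 animal gives no spread between animals.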
